A study of Mus musculus with 4 samples.

Results

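MHC class I antigen presentation is described here by 10 genes: the heavy chain genes H2-K1 and H2-D1, the light chain gene B2m, the peptide transporter genes Tap1 and Tap2, the tapasin gene Tapbp, the immunoproteasome genes Psmb8, Psmb9 and Psmb10, and the regulator Nlrc5. They were taken by name from the annotation of the Affymetrix mouse array, 10 of the 18193 genes that have a probe set of their own. A probe set is the group of short probes that gives 1 signal for a transcript. The 10 genes have 27 such sets, and 3 further sets are annotated to H2-K1 or H2-D1 together with another gene.

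The arrays measured total RNA of melan-a, a cultured line of pigmented mouse melanocytes, with 1 array per condition and 4 in all. Every culture was kept for 14 days in medium with dialyzed serum; TPA and cholera toxin are named for the growth medium and not for this one. Hmhi cells were starved alone or with 100 ng/ml EGF, and Hmhi-Miz1 kd cells (also called Hmhi-pS-Miz1) and Hmhi-MYC-TA cells were both starved with EGF. All 4 cultures are thus Hmhi derivatives, and the labels spell out neither Hmhi nor MYC-TA, and do not say whether the lines are clones. The series title places them in a study of Myc, Miz-1 and melanocyte senescence.

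With 1 array per condition there is no spread between cultures, and no test was run. Each difference compares 2 arrays and not 2 conditions. The 1 error at hand is technical, the pooled SD between probe sets of a gene, which was 0.32 for EGF-treated Hmhi minus starved Hmhi, 0.22 for Miz1 kd minus EGF-treated Hmhi and 0.24 for MYC-TA minus EGF-treated Hmhi. All levels are log2 signals and all differences are log2 differences, in which 1 is a 2-fold change. The array median was 6.66, and a set below it may be mostly background. Zbtb17, the gene of Miz-1, read 8.73 in starved Hmhi, 8.72 in EGF-treated Hmhi, 9.08 in the Miz1 kd-labelled array and 8.71 in MYC-TA on its brighter set. It was not lower in the Miz1 kd-labelled array, so every direction for the Miz1 kd and MYC-TA arrays is that of the array as labelled.

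Nearly all cell types with a nucleus show samples of their own proteins on class I molecules. Proteasomes cut cytosolic proteins into peptides, and the immunoproteasome subunits encoded by Psmb8, Psmb9 and Psmb10 replace the standard catalytic subunits when cells meet interferon. TAP1 and TAP2 form the pump that carries peptides into the endoplasmic reticulum, where tapasin holds an empty class I molecule beside the pump until a peptide fits. The finished complex of heavy chain, beta-2 microglobulin and peptide is read at the surface by CD8 T cells and, when it is missing, by natural killer cells. NLRC5 is a coactivator that acts at the promoters of these genes. Class I genes are often low in melanoma cells and respond strongly to interferon.

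In Hmhi cells the class I genes were higher with EGF than without it. Of the 10 genes, 9 were higher and 7 were at least 2-fold higher, where 7.98% of the 11461 genes compared were that much higher, 4.96% that much lower and 12.9% either. The median difference of the 10 was 1.26, against 0.01 for all genes compared. Tap1 stood highest at 3.11, followed by Psmb9 at 2.52, H2-K1 at 1.89, H2-D1 at 1.71, Nlrc5 at 1.26, Tap2 at 1.26 and Psmb8 at 1.02. Psmb8 reached the array median in EGF-treated Hmhi alone, so it entered through the array where it was high, and background limits its difference. With loess normalization it was at 0.97 and the count of 2-fold genes was 6. Tapbp, at 0.92, fell just short of the 2-fold threshold, and B2m was at 0.50. Psmb10 had the opposite sign, at -0.30, a size below the technical SD. These values are for the brightest set of each gene, which is the set used below unless another is named.

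The other EGF arrays split the genes. Psmb9 and 2 of the 4 H2-K1 sets stood close to the starved level in the Miz1 kd-labelled array. Nlrc5 stood close to it in MYC-TA instead, and Tapbp and Tap2 were also lower there than in the Miz1 kd-labelled array. Against EGF-treated Hmhi, the Miz1 kd-labelled array read lower for all 10 genes (median -0.66), and 2 of them, Psmb9 and Tap1, were at least 2-fold lower, where 2.5% of 11394 genes were, 0.29% were at least 2-fold higher and 2.79% were that far apart in either direction. Against the same array, 9 of 10 were lower in MYC-TA, with a median of -0.63, and Nlrc5 was at least 2-fold lower, where 1.65% of 11534 genes were, 1.3% were at least 2-fold higher and 2.95% were that far apart either way. The medians of all genes in these comparisons were 0.02 and 0.05. Both comparisons use the EGF-treated Hmhi array, so a deviation of that array would enter both.

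**Figure D1:**
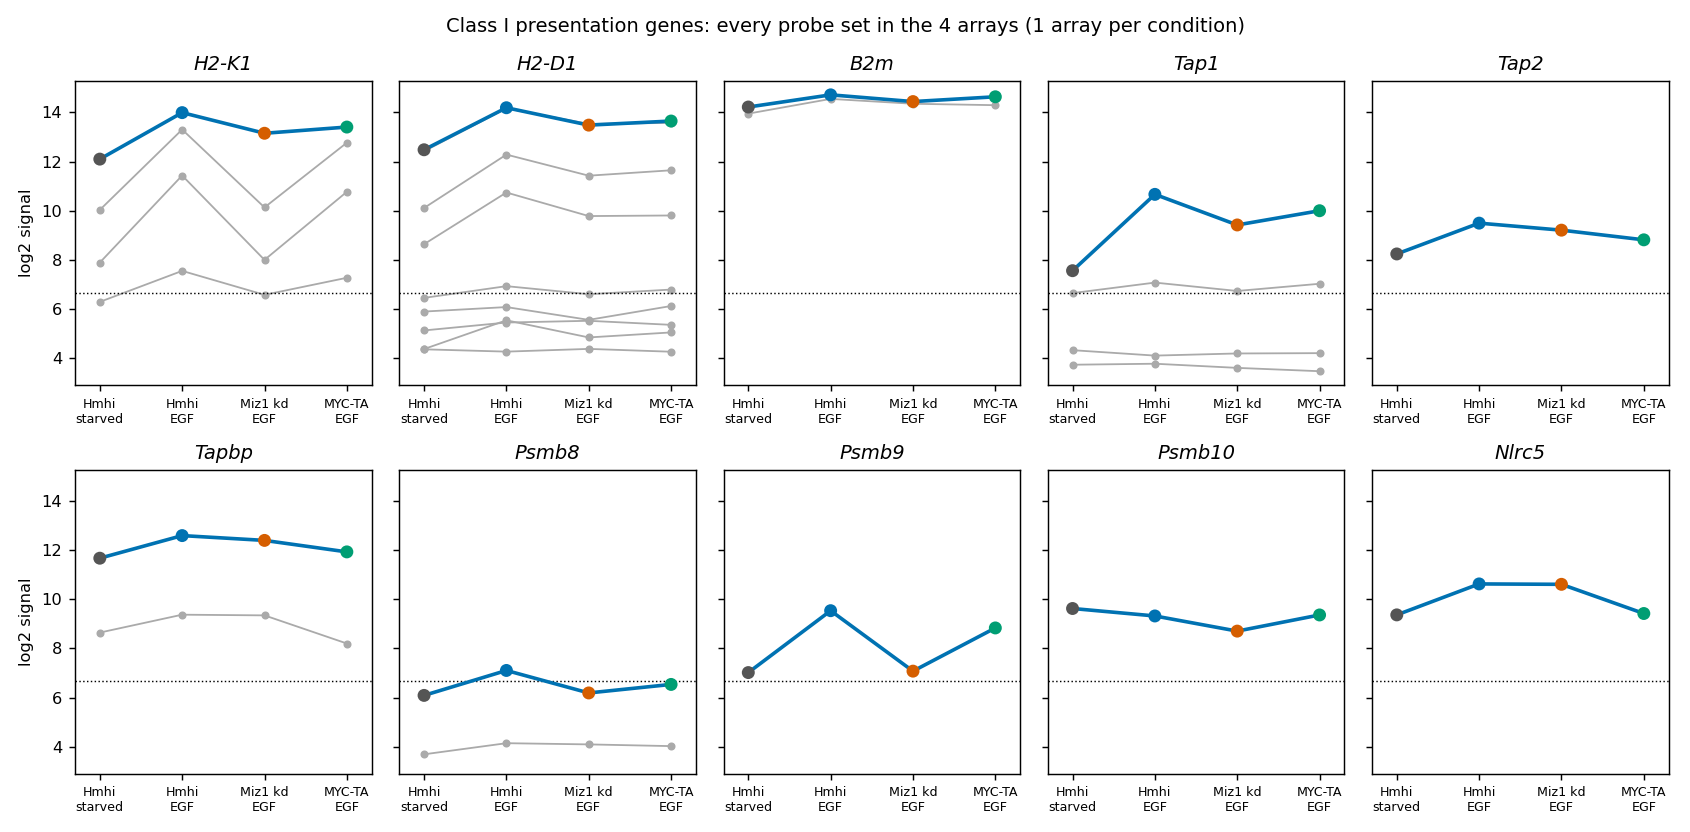
Log2 signal of every probe set annotated to 1 of the 10 genes, in the 4 arrays (1 array per condition). Coloured points joined by a blue line are the brightest set of each gene, grey lines the other sets, and the dotted line the array median of 6.66; 9 of the 10 bright sets peak in EGF-treated Hmhi, and Psmb10 does not.

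H2-K1 and H2-D1 encode the heavy chains that bind the peptide. H2-K1, at chr17:33996012-34000619 in GRCm38.p6, has 4 sets of its own, which did not behave alike. The brightest read 12.10 in starved Hmhi, 13.99 in EGF-treated Hmhi, 13.15 in the Miz1 kd-labelled array and 13.41 in MYC-TA. It was 3.72-fold higher with EGF, and the Miz1 kd-labelled array lay between the starved and the EGF level.

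The next brightest read 10.03 in starved Hmhi, 13.30 in EGF-treated Hmhi, 10.13 in the Miz1 kd-labelled array and 12.77 in MYC-TA. The set after it read 7.88, 11.43, 7.99 and 10.77 in that order. In both of these sets the starved and Miz1 kd arrays were low and the other 2 arrays high. The gap between EGF-treated Hmhi and the Miz1 kd-labelled array was 9.02-fold in the first of them and 10.8-fold in the other. The dimmest, close to the array median, read 6.28, 7.55, 6.57 and 7.27 in the same order, and was below that median in the starved and Miz1 kd-labelled arrays, so its closeness there is no measure of level. The SD between the 4 sets was 1.09 for EGF-treated Hmhi minus starved Hmhi and 1.39 for the Miz1 kd-labelled array minus EGF-treated Hmhi. For MYC-TA minus EGF-treated Hmhi it was 0.17. The sets thus disagreed mainly about the starved and Miz1 kd arrays.

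H2-D1, at chr17:35263094-35267497, has 9 sets of its own, of which 5 had an array at or above the median. The brightest read 12.48 in starved Hmhi, 14.19 in EGF-treated Hmhi, 13.48 in the Miz1 kd-labelled array and 13.65 in MYC-TA. Another set of nearly that brightness read 12.42, 14.17, 13.53 and 13.57 in that order. The 1 set of the 5 with a plain suffix read 8.63, 10.74, 9.78 and 9.80. In these 3 sets the starved array was lowest and the Miz1 kd-labelled array and MYC-TA stood together between it and EGF-treated Hmhi. Another set read 10.11, 12.28, 11.42 and 11.64, and the dimmest of the 5, near the array median, 6.45, 6.92, 6.60 and 6.79, with starved again lowest and EGF-treated Hmhi highest. Over the 5 sets the Miz1 kd-labelled array was lower than EGF-treated Hmhi by 0.33 to 0.96, and MYC-TA was lower by 0.14 to 0.94. MYC-TA and the Miz1 kd-labelled array differed by at most 0.22, below the technical SD of 0.40 for that pair.

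The H2-K1 set with the highest signal and the brightest H2-D1 set were close in their sizes of difference. All 4 H2-K1 sets had the arrays in the same order, from starved through Miz1 kd-labelled and MYC-TA to EGF-treated Hmhi, as the brightest H2-D1 set had, and they differed in size. H2 genes are alike in sequence and differ between mouse strains, and a suffix of _x_at marks sets with probes that may match other transcripts. All 4 H2-K1 sets and 7 of the 9 H2-D1 sets carry it. How far each reads 1 gene was not tested. On its own 4 sets, the H2-K1 level in the Miz1 kd-labelled array is thus uncertain between the starved level and a value 1.05 above it. A set annotated to both genes read 7.34 in starved Hmhi, 10.60 in EGF-treated Hmhi, 6.42 in the Miz1 kd-labelled array and 10.04 in MYC-TA. It had the same 2 arrays low as the H2-K1 sets of middle brightness. The Miz1 kd-labelled array was at -0.92 from starved on it, outside that range, and below the array median. A set annotated to H2-Q5 and H2-K1 read 6.46, 7.05, 7.13 and 7.22, with starved alone low, and one annotated to H2-D1, H2-Q2 and Gm38417 was below the array median throughout.

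B2m, at chr2:122147687-122153082, encodes beta-2 microglobulin, the light chain that every class I molecule needs to reach the surface. Its brighter set read 14.22 in starved Hmhi, 14.72 in EGF-treated Hmhi, 14.44 in the Miz1 kd-labelled array and 14.64 in MYC-TA. The other set read 13.95, 14.55, 14.35 and 14.30. No neighbouring arrays in the order of the brighter set differed by more than the technical SD, although the whole range, 0.50, did. These signals are near the top of the scale, where the highest value in the table is 15.12 and an array can understate a difference.

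The promoters of the heavy and light chain genes are shown over the stretch where matches to interferon and NF-kB motifs lie. H2-K1, H2-D1 and B2m were higher with EGF by 1.89, 1.71 and 0.50. The part of the motifs in these differences was not tested. Capitals mark matches to the NF-kB motif (GGG, any 5 bases, CC) and to a core of the interferon-stimulated response element, which is GAANNGAAA in H2-K1 and H2-D1 and the stricter GAAA, any 2 bases, GAAA in B2m, on either strand. NF-kB matches that overlap each other appear as 1 run of capitals. Sequences are from RefSeq, build GRCm38.p6, at chr17:34000429-34000458 on the minus strand for H2-K1, chr17:35262923-35262952 on the plus strand for H2-D1 and chr2:122147544-122147573 on the plus strand for B2m.
H2-K1: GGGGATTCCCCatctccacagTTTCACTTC
H2-D1: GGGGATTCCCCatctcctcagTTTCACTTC
B2m: acatGAAACTGAAAatGGGAAAGTCCCttt
Over these 30 bases H2-K1 and H2-D1 differed at 1 position, A18T, counted from the 5′ end with the H2-K1 base first, and it lies outside the matches. Both genes therefore carry the same matches here. The stricter core was found in B2m alone of the 8 genes with a promoter window, and in 2.98% of all 32851 windows over the 250 bases before the start. The looser GAANNGAAA was found in H2-K1 and H2-D1 besides, and in 6.31% of all windows. The looser core was added after the windows had been read. NF-kB matches were found in 5 of the 8 genes and in 45.8% of all windows. A match is a string of letters, and no binding was measured.

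The whole 250 bases before the H2-D1 start site, at chr17:35262844-35263093 on the plus strand, show how these matches lie beside the others. Capitals here mark NF-kB, GAANNGAAA, TGACG (part of a cyclic AMP response element) and CCAAT matches on either strand.
H2-D1: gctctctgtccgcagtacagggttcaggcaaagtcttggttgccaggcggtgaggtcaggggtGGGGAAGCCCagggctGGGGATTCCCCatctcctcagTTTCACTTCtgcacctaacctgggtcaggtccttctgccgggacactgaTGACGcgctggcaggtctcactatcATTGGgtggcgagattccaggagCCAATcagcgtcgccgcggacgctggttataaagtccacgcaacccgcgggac
The looser core stood at -150 to -142 from the start site, TGACG at -101 to -97 and the first CCAAT match, on the opposite strand, at -76 to -72. TGACG followed by CCAAT is the general layout of class I promoters at which NLRC5 is known to act. TGACG was found in 5 of the 8 genes and in 17.8% of all windows, and CCAAT in 6 of the 8 and in 33.9% of all windows. The full TGACGTCA, which holds TGACG, was found in 0 of the 8 genes and in 1.55% of all windows.

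Tap1 encodes one arm of the peptide pump. Its bright set read 7.55 in starved Hmhi, 10.66 in EGF-treated Hmhi, 9.42 in the Miz1 kd-labelled array and 10.00 in MYC-TA. It was 8.63-fold higher with EGF than without it, rank 50 from the highest among 11461 genes, and the largest difference of the 10. The Miz1 kd-labelled array was lower than EGF-treated Hmhi by 1.25 and MYC-TA was lower by 0.67, yet both stayed above the starved array, by 1.86 and 2.44. A second Tap1 set near the array median read 6.64, 7.07, 6.73 and 7.02, with the same order of arrays and much smaller gaps. The other 2 Tap1 sets were below the median in every array.

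Psmb9 encodes the immunoproteasome subunit also called LMP2, and its 1 set read 7.02 in starved Hmhi, 9.54 in EGF-treated Hmhi, 7.08 in the Miz1 kd-labelled array and 8.84 in MYC-TA. The starved array and the Miz1 kd-labelled array were 0.06 apart, within the technical SD of 0.41 for that pair, and both were close to the array median. EGF-treated Hmhi was 5.74-fold above starved, and MYC-TA stood 1.82 above starved. Psmb9 had the largest difference of the 10 between the Miz1 kd-labelled array and EGF-treated Hmhi, 5.51-fold lower, rank 47 from the lowest among 11394 genes.

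Tap1 and Psmb9 lie head to head, Psmb9 at chr17:34182030-34187330 and Tap1 at chr17:34187556-34197225, and are read in opposite directions from a stretch of 225 bases between their start sites. That stretch is shown because the genes share it and yet stood apart in the Miz1 kd-labelled array on the bright Tap1 set. It is written on the plus strand, the strand of Tap1, from chr17:34187331-34187555, and Psmb9 begins just before its left end, on the other strand. Capitals mark NF-kB, TGACG and CCAAT matches on either strand.
Tap1 and Psmb9: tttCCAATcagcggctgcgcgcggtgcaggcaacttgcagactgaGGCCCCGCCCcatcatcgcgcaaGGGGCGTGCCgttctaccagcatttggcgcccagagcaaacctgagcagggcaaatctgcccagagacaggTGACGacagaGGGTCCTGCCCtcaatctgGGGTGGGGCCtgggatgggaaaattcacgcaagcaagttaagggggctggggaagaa
The TGACG match stands at -86 to -82 from the Tap1 start site and at -144 to -140 from that of Psmb9. The CCAAT match lies at -8 to -4 from the Psmb9 start site and at -222 to -218 from that of Tap1. Against starved, Tap1 was higher by 3.11 and Psmb9 by 2.52 in EGF-treated Hmhi, and by 2.44 and 1.82 in MYC-TA. In the Miz1 kd-labelled array the 2 genes were at 1.86 and 0.06. On its bright set Tap1 thus stood above starved in all 3 EGF arrays, and Psmb9 in 2 of them. The second Tap1 set, near the array median, was only 0.09 above starved in the Miz1 kd-labelled array. The SD between the 2 Tap1 sets was 1.26 for that pair, so the contrast with Psmb9 rests on 1 Tap1 set.

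Tap2, the other arm of the pump, at chr17:34204479-34216321, has 1 set. It read 8.24 in starved Hmhi, 9.49 in EGF-treated Hmhi, 9.21 in the Miz1 kd-labelled array and 8.81 in MYC-TA. EGF-treated Hmhi was highest, and MYC-TA rather than the Miz1 kd-labelled array was the nearest to starved. The step of 0.39 between those 2 arrays was just within the technical SD of 0.40.

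Tapbp, at chr17:33919478-33929290, encodes tapasin. Its brighter set read 11.68 in starved Hmhi, 12.60 in EGF-treated Hmhi, 12.40 in the Miz1 kd-labelled array and 11.93 in MYC-TA. The other set read 8.65, 9.38, 9.35 and 8.20. On both sets EGF-treated Hmhi and the Miz1 kd-labelled array were the high pair and MYC-TA stood with the starved array. MYC-TA was lower than EGF-treated Hmhi by 0.66 on the brighter set and by 1.17 on the other, on which it read below starved.

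Psmb8 encodes the immunoproteasome subunit also called LMP7 and lies beside Tap1 at chr17:34198195-34201454. Its brighter set read 6.09 in starved Hmhi, 7.10 in EGF-treated Hmhi, 6.19 in the Miz1 kd-labelled array and 6.53 in MYC-TA. EGF-treated Hmhi alone was above the array median, so Psmb8 entered a comparison through that array alone and background limits the size of its differences. The starved array and the Miz1 kd-labelled array were both below the median, so how far apart they were was not measurable. The other set read at most 4.14.

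Psmb10, also called MECL-1, is the immunoproteasome subunit whose gene lies outside the H2 region, at chr8:105935728-105938392. Its 1 set read 9.63 in starved Hmhi, 9.32 in EGF-treated Hmhi, 8.71 in the Miz1 kd-labelled array and 9.36 in MYC-TA. Starved was the highest array, the reverse of the other 9 genes, and the Miz1 kd-labelled array was the lowest, at -0.92 from starved. The steps from starved to MYC-TA and to EGF-treated Hmhi were within the technical SD. The 250 bases before its start, at chr8:105938393-105938642 on the minus strand, are shown as those of the 1 gene without a positive EGF difference. None of the 7 motifs searched, which are those above and TTCNNNGAA (the interferon-gamma activated site), was found there, so no base is in capitals.
Psmb10: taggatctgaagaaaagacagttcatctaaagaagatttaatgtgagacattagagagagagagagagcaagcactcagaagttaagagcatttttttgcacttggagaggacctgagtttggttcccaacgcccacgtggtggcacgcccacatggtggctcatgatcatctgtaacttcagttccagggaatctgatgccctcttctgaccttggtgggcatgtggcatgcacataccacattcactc
TTCNNNGAA was found in Psmb8 alone of the 8 genes, at -97 to -89, and in 7.02% of all windows. The absence of a match says only that these letters are not in this window.

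Nlrc5, at chr8:94434335-94527272, read low in MYC-TA alone of the EGF arrays. Its 1 set read 9.37 in starved Hmhi, 10.63 in EGF-treated Hmhi, 10.61 in the Miz1 kd-labelled array and 9.42 in MYC-TA. EGF-treated Hmhi and the Miz1 kd-labelled array were 0.02 apart and MYC-TA and starved 0.06 apart, both within the technical SD, and the pairs were 2.28-fold apart at the nearest. In the Miz1 kd-labelled array, where Psmb9 and 2 H2-K1 sets were at the starved level, Nlrc5 was therefore at the EGF level. In MYC-TA, where Nlrc5 was at the starved level, Psmb9 was 1.82 and the H2-K1 sets 0.98 to 2.88 above starved.

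**Figure D2:**
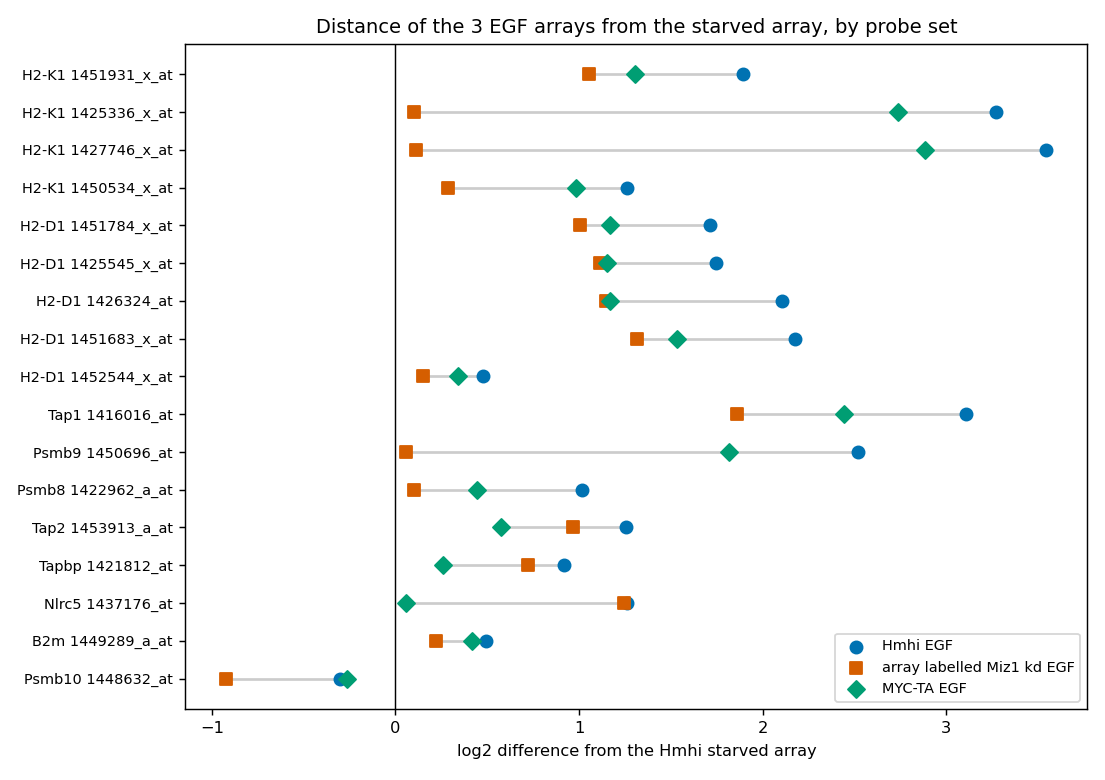
Log2 difference from the starved Hmhi array (x axis) in the 3 EGF arrays, for the H2-K1 and H2-D1 sets with an array at or above the median and for the brightest set of the other 8 genes. Blue circles are EGF-treated Hmhi, orange squares the Miz1 kd-labelled array and green diamonds MYC-TA; the square is at 0.06 for Psmb9 and at 0.10 and 0.11 for 2 H2-K1 sets, and the diamond is at 0.06 for Nlrc5. Psmb8 and the dimmest H2-K1 and H2-D1 sets were below the median in both starved Hmhi and the Miz1 kd-labelled array.

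Over the 10 genes, the starved array was the lowest for 9 and EGF-treated Hmhi the highest for 9. Of the 30 steps between neighbouring arrays in the order of each gene, 15 were larger than the technical SD of that pair. The order of the middle arrays was therefore not resolved for H2-K1 on its brightest set, H2-D1, Tap2, Psmb8 and Psmb10, nor any single step for B2m. Directly compared, MYC-TA was at least 2-fold above the Miz1 kd-labelled array for Psmb9, by 1.76, and at least 2-fold below it for Nlrc5, at -1.19, among 9 genes that could be compared. Of all 11613 genes in that comparison, 6.72% were that much higher, 4.26% that much lower and 11% either, so the count of 1 in each direction is not far from the background. With each H2-K1 and Tapbp set of widest range in place of the brightest, H2-K1 was 2.77 higher and Tapbp at -1.15, and 4 of the genes were 2-fold apart. Picking the widest range over these same arrays favours large differences in any gene. The share of all genes under that choice was not computed, so the count of 4 has no background beside it.

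Against the starved array, a 2-fold higher level was read for 4 of 9 genes in the Miz1 kd-labelled array and for 4 of 9 in MYC-TA, where 7.45% and 8.33% of all genes were. Of all genes, 7.42% and 4.91% were 2-fold lower in these comparisons, and 14.9% and 13.2% were that far apart in either direction. In the Miz1 kd-labelled array these were Tap1, Nlrc5, H2-K1 and H2-D1. In MYC-TA they were Tap1, Psmb9, H2-K1 and H2-D1. The medians were 0.97 and 0.58. With the mean of all sets of a gene, these counts became 1 and 2. H2-K1, H2-D1 and Tap1 were then at 0.39, 0.59 and 0.42 in the Miz1 kd-labelled array, and H2-D1 and Tap1 at 0.71 and 0.61 in MYC-TA.

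**Figure D3:**
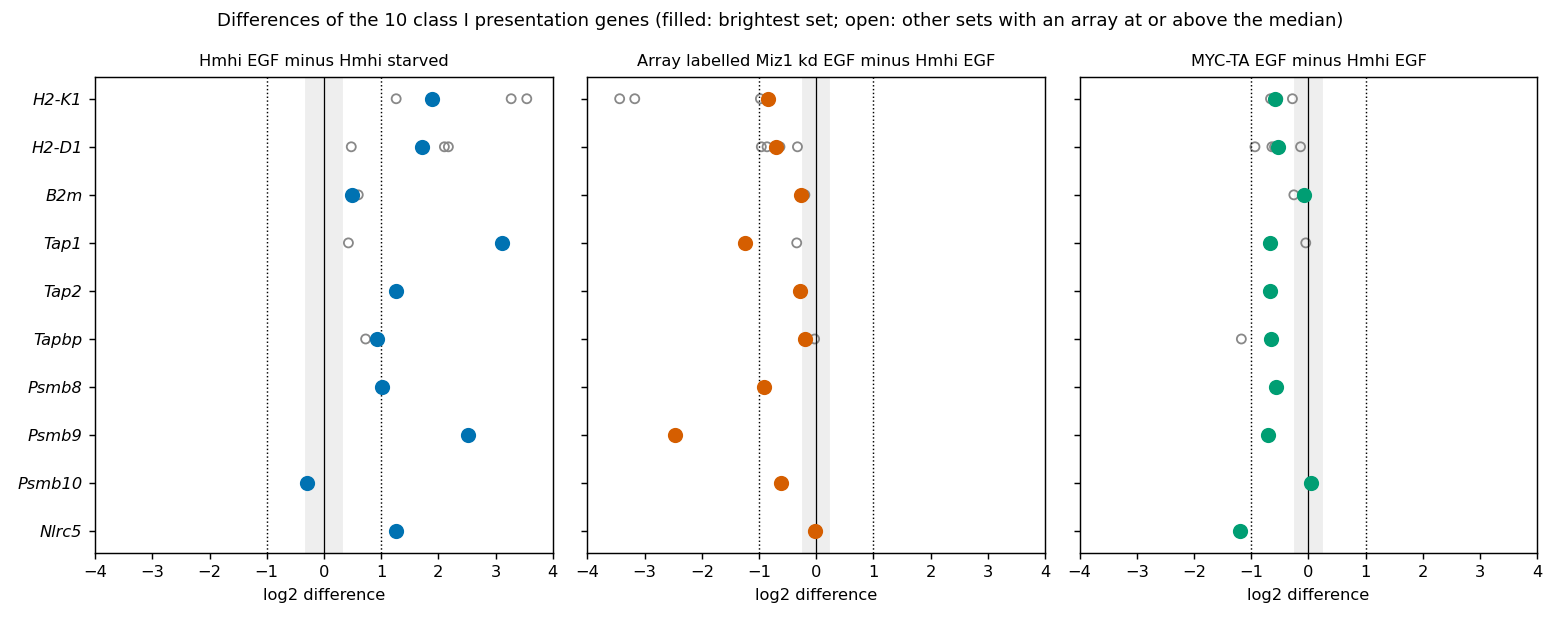
Log2 differences (x axis) of the 10 genes in 3 comparisons between arrays. Filled points are the brightest set of each gene and open points its other sets with an array at or above the median; the grey band is the technical SD and the dotted lines mark 2-fold. Open points of H2-K1 reach -3.44 in the middle panel, far from its filled point at -0.84.

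Of the other class I heavy chain genes listed, 7 had a set of their own and 2 had an array at or above the median. H2-M3, a nonclassical molecule that presents formylated peptides, read 6.46 in starved Hmhi, 8.96 in EGF-treated Hmhi, 6.60 in the Miz1 kd-labelled array and 8.19 in MYC-TA. Its low and high arrays were those of Psmb9. Both low values were below the array median of 6.66, so their closeness is no measure of level. H2-T3, near the array median, read between 6.60 and 6.92 and showed no such gap. Among class I-like molecules outside the H2 region, 3 of 6 compared were at least 2-fold higher with EGF, beside 7.98% of all genes, with a median of 1.10. They were Azgp1 at 2.57, Procr, the endothelial protein C receptor, at 1.85, and Fcgrt, the neonatal Fc receptor heavy chain, at 1.44. Cd1d1, which presents lipids, was at 0.77 with EGF and at -1.64 in the Miz1 kd-labelled array against EGF-treated Hmhi.

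Of 12 genes for peptide loading and trimming in the endoplasmic reticulum, 9 were higher with EGF and 3 lower, with a median of 0.78. At least 2-fold higher was 1 of the 12, near the background of 7.98% of all genes. Uggt1, the glucosyltransferase that tests folding, was at 1.13. Ganab, a glucosidase, was at 0.89, Pdia3, the ERp57 of the loading complex, at 0.88, and Calr, the chaperone calreticulin, at 0.87. Erap1, which trims peptides, was at 0.86, and the lower genes were Sec61b at -0.76, Spcs1 at -0.29 and Tapbpl, a tapasin relative, at -0.09; these 4 are named after their values were seen. In the Miz1 kd-labelled array against EGF-treated Hmhi this list had a median of -0.29, and in MYC-TA -0.13, with 0 of 12 at least 2-fold apart in either.

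Proteasome genes outside the immunoproteasome differed less than Psmb9 with EGF. The standard catalytic subunits that Psmb8, Psmb9 and Psmb10 replace are encoded by Psmb5, Psmb6 and Psmb7, which were at -0.25, -0.10 and -0.40 with EGF. All 11 other core subunits were below 0 with EGF, with a median of -0.27, and all 11 were above 0 in MYC-TA against EGF-treated Hmhi, with a median of 0.31. Psmb1 was at -0.65, Psma4 at -0.48, Psma1 at -0.41 and Psma2 at -0.39 with EGF. Psmb10, at -0.30, lay among them. Many of these sizes are near the technical SD, and 0 of the 11 were 2-fold apart in either comparison. The proteasome activator and assembly genes had a median of 0.01 with EGF, with Pomp, the assembly factor, at -0.76, Psme4 at 0.58, Psme1, a subunit of the interferon-responsive activator, at 0.46 and Psmg1 at -0.22. Psme2 has no set of its own, and a set annotated to it and Psme2b was at -0.39 with EGF. All 8 cytosolic peptidases were slightly below 0 with EGF, between -0.30 for Nrd1 and -0.03, with Prep, Thop1 and Ide at -0.19, -0.18 and -0.18.

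**Figure D4:**
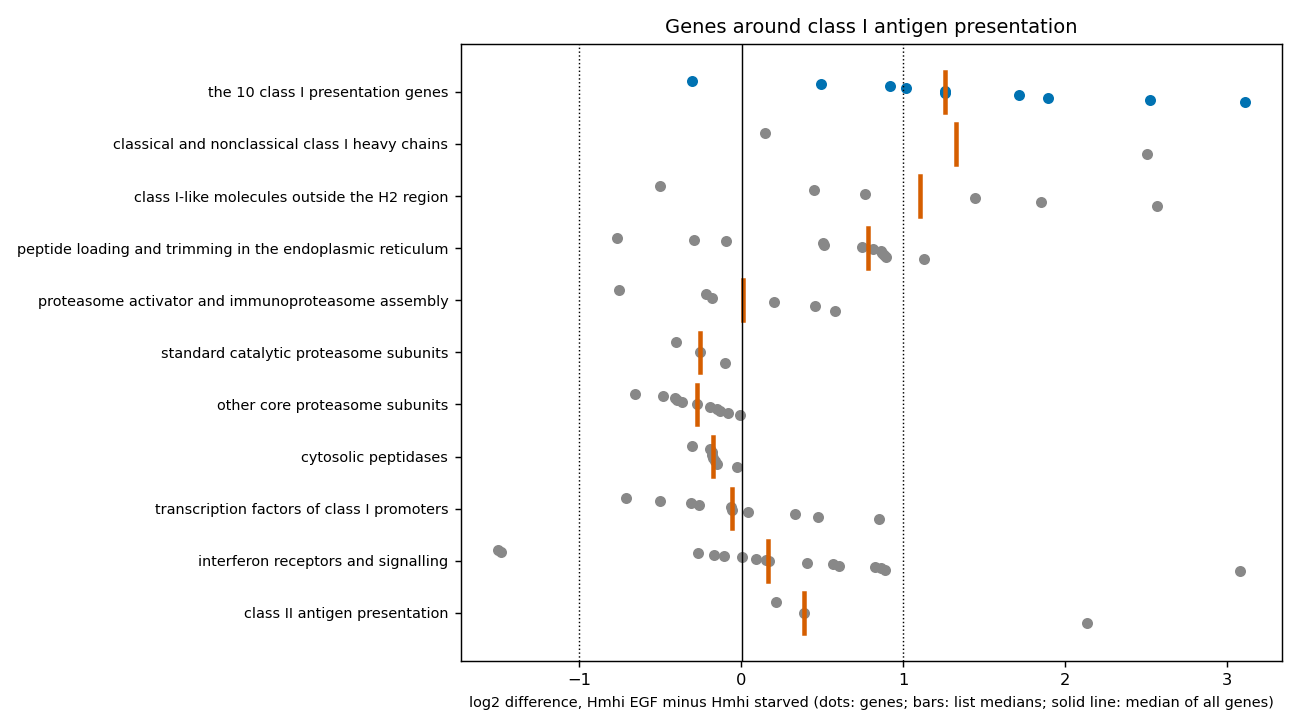
Log2 difference of EGF-treated Hmhi minus starved Hmhi (x axis) for genes around class I antigen presentation, by list. Each dot is 1 gene that could be compared, orange bars are list medians, the solid line is the median of all genes and dotted lines mark 2-fold; the 10 class I presentation genes have a median of 1.26 and the other core proteasome subunits one of -0.27.

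The factors that drive class I promoters showed small differences. Of 10 compared, 0 were 2-fold apart with EGF, and the median was -0.06. Rfx5, a subunit of the RFX complex that recruits NLRC5, was at 0.85, Irf2 at -0.71, Rfxap at -0.50 and Nfyc, a subunit of the CCAAT-binding complex, at 0.47. Ciita, the class II counterpart of NLRC5, was below the array median in every array. Of 16 interferon receptor and signalling genes, 1 was at least 2-fold higher with EGF and 2 at least 2-fold lower, beside 7.98% and 4.96% of all genes, with a median of 0.17. Usp18, which restrains interferon signalling, was at 3.08, Jak2 at 0.89, and Jak1 and Socs3, a kinase and a brake of cytokine signalling, at -1.48 and -1.497. Irf9, the DNA-binding part of the interferon-activated complex, was at -1.02 in the Miz1 kd-labelled array against EGF-treated Hmhi, and is named after its value was seen. The 5 interferon genes with a set of their own, Ifng, Ifnb1, Ifna1, Ifna2 and Ifna4, were below the array median in all 4 arrays.

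Of 10 class II genes measured, 3 had an array at or above the median, and all 3 were higher with EGF. H2-Aa, H2-Ab1 and H2-Eb1, which encode the class II chains, were below the array median in every array. Cd74, the invariant chain, read 6.81 in starved Hmhi, 8.94 in EGF-treated Hmhi, 9.49 in the Miz1 kd-labelled array and 8.05 in MYC-TA, and so was lower in MYC-TA than in the Miz1 kd-labelled array, as Nlrc5 and Tapbp were. H2-DMa and H2-Eb2 were at 0.39 and 0.22 with EGF.

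Markers of other cell types are given beside these results. Of 12 leukocyte markers, 6 had an array at or above the median, and the mean level of the list was 6.49, 6.53, 6.58 and 6.45 in starved Hmhi, EGF-treated Hmhi, the Miz1 kd-labelled array and MYC-TA. Ptprc, Itgam, Adgre1, Tyrobp, Cd52 and Coro1a were below the median in every array. Lyz2 read 11.87, 12.37, 11.89 and 10.74, Csf1r 9.41, 6.74, 6.87 and 6.73, and Cd68 6.55, 8.07, 8.05 and 8.28. Laptm5 read between 7.23 and 7.56. Of 9 fibroblast markers, 6 had an array at or above the median, and the list's mean level was 7.46, 7.66, 7.39 and 7.69 in the same order. Postn, a matrix protein gene, read 7.91, 10.15, 8.85 and 10.03, and its lowest arrays were starved Hmhi and the Miz1 kd-labelled array, as for Psmb9. Dcn read 11.50, 10.35, 9.45 and 11.56, Col3a1 6.59, 7.21, 6.25 and 9.69, and Pdgfra 7.40, 8.21, 8.24 and 7.93. Pdgfrb, named after its values were seen, read 10.45, 10.18, 11.16 and 6.91, and Col1a1, Lum and Thy1 were below the median throughout. Endothelial markers had 2 of 6 with an array at or above the median, keratinocyte markers 3 of 7 and Schwann cell markers 2 of 4, with list means of 5.10 to 5.37, 6.43 to 6.58 and 9.12 to 9.47. The endothelial markers past the median were Kdr, between 6.56 and 6.995, and Vwf, in the Miz1 kd-labelled array alone at 6.935. The keratinocyte ones were Krt5, Krt10 and Epcam, each at or above it in every array, with Epcam between 8.06 and 8.95. The Schwann cell ones were Mbp, between 13.95 and 14.70, and S100b, between 10.025 and 10.966. Pecam1, Krt14 and Ngfr were below the median in every array. The part of other cell types in the class I values was not tested.

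Of 12 melanocyte markers, 9 to 10 were at or above the median in each array, and Tyr and Ednrb were below it in all. Sox10 was steady, between 12.96 and 13.37, and others were not. Slc45a2, Pmel, Dct and Oca2 were higher with EGF by 1.62, 1.51, 1.48 and 1.07, and Tyrp1 was at -1.02. Dct was at -2.07 in the Miz1 kd-labelled array and Oca2 at -3.16 in MYC-TA, each against EGF-treated Hmhi. Of the 10 markers compared between MYC-TA and starved, 6 were at least 2-fold lower in MYC-TA, where 4.91% of all genes were. The pigment genes and the class I genes thus both differed between these arrays, and the part of the one in the other was not tested. In bulk RNA, fewer cells of a kind and less RNA per cell cannot be told apart.

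RNA controls also moved with the arrays. The 3 control sets of 18S rRNA were higher in EGF-treated Hmhi than in starved by 0.67 to 0.84, and those of the Miz1 kd-labelled array were lower than in EGF-treated Hmhi by 0.23 to 0.63. The beta-actin control, whose 3′ set minus 5′ set measures how far copies reach along the transcript, was 0.66 in starved Hmhi, 0.87 in EGF-treated Hmhi, 0.74 in the Miz1 kd-labelled array and 0.72 in MYC-TA. The part of RNA handling in the class I differences was not tested.

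The genes whose 4-array pattern lay nearest to the median pattern of the 10 were Calu, Btc, Rnf207, Lmcd1, Adipor2, Notch4, Gprc5c, Slc26a6, Gsta2 and Tlcd1, out of 11795 compared. Likeness was the Euclidean distance between log2 profiles centred over the 4 arrays, and it ran from 0.09 for Calu to 0.19 for Tlcd1. Calu, which encodes the calcium-binding protein calumenin, read 12.74 in starved Hmhi, 13.97 in EGF-treated Hmhi, 13.45 in the Miz1 kd-labelled array and 13.50 in MYC-TA. The 10 class I genes themselves lay between 0.33 for H2-D1 and 1.504 for Psmb9 from their own median. The named genes were picked as the nearest of 11795, so their smaller distances follow from that choice. Of the class I genes, H2-D1, Tap2 and Psmb8 were nearest to the median pattern, at 0.33, 0.37 and 0.41. Psmb10, Tap1 and Psmb9 were farthest from it, at 1.30, 1.42 and 1.504.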

How the data were processed

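The deposited table gives 1 value per probe set and array for 45101 probe sets. The authors' deposited values run from 2.94 to 15.12 and were read as log2 signal; the log base, summarization and normalization are not given in the sources used here. Sorted columns lay within 0.004 of each other, so these values cannot show a change common to all genes. Values were not centred per gene. Per the labels' protocols, labelling started from 100 ng of RNA.

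In the 2016 annotation 34945 sets carried 1 gene symbol, 932 carried several, 9160 carried none and 64 were controls. Entrez identifiers of 34741 sets matched RefSeq, including all 10 genes. Each gene was represented by its brightest set over the 4 arrays, and entered a comparison if the brighter array was at or above its median. Of the 27 sets, 20 had such an array, as did all 10 genes. All 6 pairs of arrays were compared. Differences of 2-fold were counted, with no test, and the code was tested on simulated data. The array number limits the precision of every value.

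Every set of the 10 genes is described or counted. Other lists name up to 4 genes with the largest EGF difference, and the interferon and leukocyte lists those of highest level. Cell type markers are also named by whether they reached the array median. The genes and lists were chosen with earlier results of these data known. Alternatives changed the normalization (common median, quantile, loess), the level filter and the probe set per gene. Promoter windows came from RefSeq, GRCm38.p6, for 8 of the 10 genes, not Tap2 or Nlrc5. Python 3.11.15, pandas 2.3.3, numpy 2.4.6, statsmodels 0.14.6 and matplotlib 3.10.9 were used.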

Additional observations from a re-analysis of the deposited data

Results flagged for a closer look

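Probe sets annotated to several class I genes at once enter no comparison of single genes. Of 12 such sets, 5 with an array at or above the median exceeded starved Hmhi at least 2-fold in EGF-treated Hmhi. These signals lie outside the gene comparisons. Of the single genes compared, 7.98% were that much higher, and no such share was computed over all sets. The 12 include sets below the median in every array, which could not be counted as higher. The set of H2-K1 and H2-D1 was higher by 3.26, that of H2-Q9 and H2-Q7 by 2.995 (5.13 in starved Hmhi, 8.12 in EGF-treated Hmhi, 5.26 in the Miz1 kd-labelled array and 8.11 in MYC-TA) and that of H2-Q6 and H2-Q8 by 2.80. Starved Hmhi and the Miz1 kd-labelled array were below the array median in the H2-Q9 and H2-Q7 set, so their closeness is no measure of level. In the H2-Q6 and H2-Q8 set, starved Hmhi was below it. A set of H2-T9, H2-T22 and H2-T10 was higher by 1.28 and read 10.60 in both starved Hmhi and the Miz1 kd-labelled array. A dimmer set with the same annotation was higher by 0.48 and read 6.735, 7.215, 7.401 and 6.526 in the same order of arrays. On it the Miz1 kd-labelled array was the highest and MYC-TA the lowest. The set of H2-T-ps and H2-T23 was higher by 1.14 (8.04, 9.18, 8.62 and 6.77 in the same order), and MYC-TA was its lowest array. Which gene each set reads was not tested.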

How the results depend on the processing

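No paired analysis was possible because there was a single array per condition. Leaving 1 out would remove its condition. The arrays already share 1 distribution, so a common median and quantile normalization could move nothing and say nothing about stability. Under loess and both level filters, every count of 2-fold genes stayed within 1.5 times and every median moved by less than the technical SD. The choice of probe set mattered more. With only plain _at sets, 6 of the 10 genes remained, 4 of them 2-fold apart with EGF, with a median of 1.68. With the mean of all sets, 5 of 8 genes were 2-fold apart with EGF, with a median of 1.17. The median of the Miz1 kd-labelled array was then -0.39 against EGF-treated Hmhi. It was 0.49 against starved with a count of 1, and the MYC-TA count against starved was 2. With the set of widest range, 2 genes were 2-fold apart between MYC-TA and EGF-treated Hmhi and 4 between MYC-TA and the Miz1 kd-labelled array. That choice favours large differences, and no share of all genes was computed under any of these choices of set. Of the single-gene values under the probe set choices, 29 moved by more than the technical SD and 127 did not. Tap2, Psmb9, Psmb10 and Nlrc5 have 1 set each, so their values could not move. The same holds where a choice picked the brightest set again, as for Tap1 with the widest range. The 127 include all such values and are no measure of stability. Under loess 0 of 60 did. Of the genes at least 2-fold apart, 0 changed sign under any alternative run. Tapbp in MYC-TA against starved, within the technical SD, went from 0.26 to -0.09 with the mean of both sets. The H2-K1 difference with EGF ranged up to 3.55 and the Tap1 difference down to 0.84. The cause of the disagreement between sets was not tested.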
